A study of Mus musculus with 59 samples.

Results

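The immediate early genes are switched on within minutes of a growth or stress signal, without new protein synthesis, and 10 of them were followed here in mouse embryonic stem cells (ESCs): Fos, Fosb, Jun, Junb, Jund, Egr1, Ier2, Ier5, Zfp36 and Dusp1. They were taken by gene symbol from a total RNA table of 23974 genes, so that their level before the transcription inhibitor Actinomycin D and the share left after it could be read in 2 genotypes. Wild type ESCs (control) were compared with ESCs knocked out for Zcchc8 (KO), the scaffold of the nuclear exosome targeting (NEXT) complex, which passes nuclear RNA to the RNA exosome for breakdown. The ESCs came from blastocysts of the BDF1 strain. Their culture medium held fetal bovine serum, LIF, the GSK3 inhibitor CHIR99021 and the MEK inhibitor PD0325901 in both genotypes. Actinomycin D was used at 5 µg/ml and RNA was collected at 0, 4 and 8 h, with 2 replicates in each of the 6 groups, or 12 of the 59 samples in the series. The labels give neither the number of KO clones nor the origin of the replicates. The spread that p-values rest on is therefore that of these libraries and may be technical. In bulk RNA, fewer cells of a type and less RNA per cell cannot be told apart.

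Fos and Fosb pair with Jun, Junb or Jund to form the transcription factor AP-1, and Egr1 is a zinc finger transcription factor. MEK and ERK signalling, which PD0325901 blocks, is a main route to the transcription of Fos and Egr1. Zfp36 (tristetraprolin) and Dusp1 act as brakes: Zfp36 binds AU-rich elements and recruits deadenylases to the mRNA, and Dusp1 removes phosphates from MAP kinases. Many immediate early mRNAs carry AU-rich elements, built from the pentamer ATTTA in the 3′UTR, and are known for short lives in the cytoplasm.

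The 3′UTRs of all 10 genes were found in the GENCODE M21 annotation (GRCm38), and 9 of them held at least 1 ATTTA on the sense strand. The longer motif TTATTTATT, which contains the pentamer, was found in 3: Fos with 1 copy, Zfp36 with 1 and Dusp1 with 2. Among the 6501 genes of the table that were tested and had a matched 3′UTR, 67.3% held ATTTA and 7.08% held TTATTTATT, with a median 3′UTR length of 1023 bases. Ier2, with a 3′UTR of 755 bases, held neither. The stretches below show, for 5 genes that the results turn on, 30 bases with the most copies of ATTTA (in capitals, 5′ to 3′ on the sense strand).
Fos (chromosome 12, 3′UTR bases 642 to 671 of 815): ttgtgttttcaATTTATTTAttaagatgga
Jun (chromosome 4, 3′UTR bases 1031 to 1060 of 1233): atcATTTAtaatcataggaaagATTTAgta
Junb (chromosome 8, 3′UTR bases 239 to 268 of 485): aatatatttgtgtATTTAacagggagggga
Zfp36 (chromosome 7, 3′UTR bases 571 to 600 of 774): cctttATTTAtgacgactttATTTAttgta
Dusp1 (chromosome 17, 3′UTR bases 94 to 123 of 690): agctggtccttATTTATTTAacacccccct
Copies per 3′UTR ranged from 0 in Ier2 to 4 in Fos, Jun and Dusp1, with 3 in Zfp36, 2 in Junb, Egr1 and Ier5, and 1 in Fosb and Jund. A motif match is a description of the letters and not a site of binding.

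Values are the authors' normalised read counts, and all changes are differences of log2(value + 1), a scale that understates the change of low genes. Whether the authors' scaling rested on genes or on added spike-in RNA is not given, and all changes after Actinomycin D depend on it. The mean library total fell from 1162740 at 0 h to 402504 at 8 h in control, and from 1460509 to 683052 in KO. Over that time the median tested gene changed by −1.33 log2 units in control and by −1.15 in KO. The deposited scale thus did not hold the typical gene constant. Depth was low: the libraries held 465324 to 1364523 counted reads, and a single read (1 read) stood for a value of 0.452 to 3.23. Control 0 h replicate 2 lay above replicate 1 by 0.81 log2 units in the median tested gene, and by 0.80 in the median immediate early gene. Zcchc8 itself changed by −2.42 log2 units at 0 h in KO against control (adjusted p = 0.0332), and its changes of −0.71 at 4 h and −0.53 at 8 h were not called. A gene was tested where its mean over the 12 libraries was at least 10, which 6952 genes passed, and was called by limma at an adjusted p (Benjamini-Hochberg, over all genes tested) below 0.05. Of the 10 immediate early genes, 7 passed this filter: Jun, Junb, Egr1, Ier2, Ier5, Zfp36 and Dusp1. A gene can pass on its 0 h level alone, so counts over these 7 describe them and support nothing further. Zfp36 and Egr1 passed narrowly (means of 12.3 and 12.6), and only through their KO 0 h means of 35.3 and 42.8. Their control 0 h means were 9.75 and 22.9. Fos (mean 7.33, 53 reads in all) and Fosb (mean 3.45, 28 reads) did not pass, and Jund had 0 reads in all 12 libraries on both of its transcript rows. The filter was passed by 8.47% of the 4888 genes with several transcript rows and by 34.3% of those with 1. The 0 of Jund therefore cannot be taken as a measure of its RNA. How reads shared by several transcripts were counted was not tested.

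The cells carried markers of pluripotent cells and of fibroblasts. Of 15 pluripotency genes, 11 had a mean of at least 10, and Pou5f1 lay between 103 and 314 in the 12 libraries, while Esrrb was at 0 in all 12 and Nanog in 11. Both have several transcript rows, so, as for Jund, these zeros cannot be taken as a measure of their RNA. Of 19 fibroblast genes 13 had a mean of at least 10, among them Col1a1 with 3065 to 9693, while 2 were at 0 in all libraries.

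Before Actinomycin D, each of the 9 genes with reads was higher in both KO libraries than in both control libraries, as were 37.3% of all tested genes. The ratio of KO to control means ran from 1.54 in Fos and 1.87 in Egr1 to 2.96 in Junb and 3.62 in Zfp36, but no single gene passed the test. Summed over the genes, the value was 275 and 468 in control and 867 and 799 in KO, a ratio of means of 2.24. As a share of each library's total, in ppm, the sum was 335 and 312 in control against 584 and 557 in KO, a ratio of 1.76. The ratio was thus smaller, and the spread within each genotype narrower, once each library was set against its own total.

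After 4 h in Actinomycin D the summed value was far lower in both genotypes, and at 8 h it was near its 4 h level on the deposited scale. It was 48.8 and 57.2 in control at 4 h and 77.4 and 107 in KO. At 8 h it was 38.4 and 53.3 in control and 74.6 and 120 in KO. As a share of the library total, the mean rose from 75.0 ppm at 4 h to 113 at 8 h in control, and from 110 to 140 in KO. The KO to control ratio of the means was 1.74 at 4 h and 2.12 at 8 h on the deposited scale, and 1.46 and 1.24 in ppm. The plot of values by hour shows the deposited values gene by gene.

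**Figure D1:**
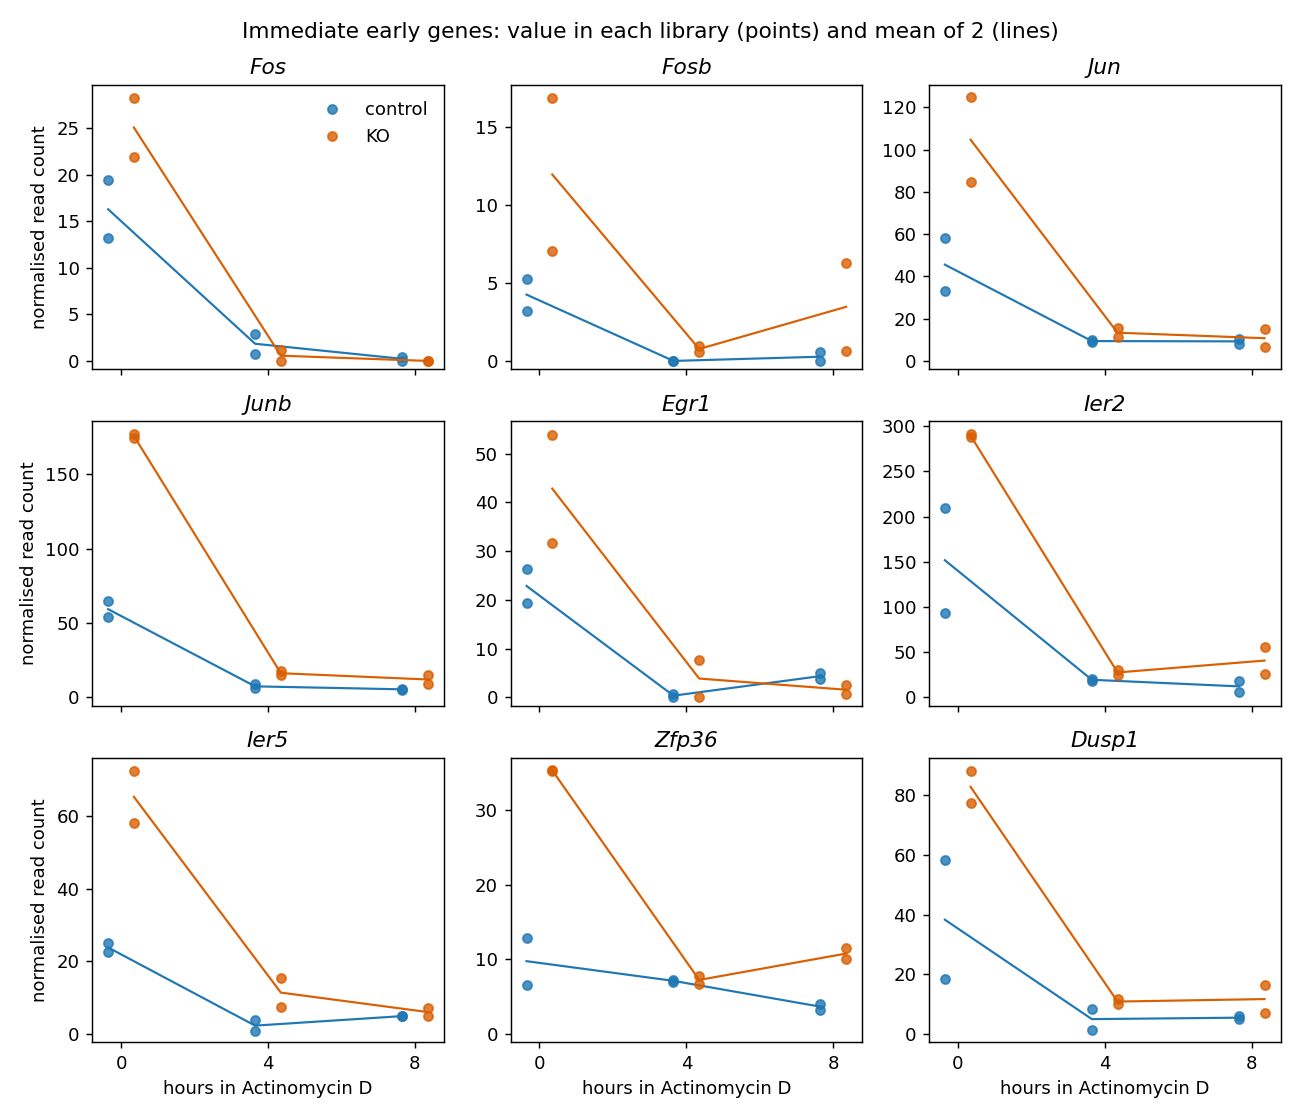
Normalised read count (vertical axis, linear, a separate scale per gene) against hours in Actinomycin D (horizontal axis) for the 9 genes with reads. Points are single libraries, lines join the means of 2 libraries, blue is control and orange is KO, drawn side by side. Every gene is highest at 0 h in KO, and the drop comes before 4 h in all but Zfp36 in control.

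Among the AP-1 subunits with reads, Junb had the highest value at 0 h in both genotypes. That value at 0 h was 54.0 and 64.6 in control and 177 and 175 in KO. At 4 h it was 8.73 and 6.18 in control and 15.1 and 17.4 in KO, and at 8 h 5.94 and 4.97 in control and 15.3 and 8.82 in KO. The KO libraries lay above the control libraries at each time, and the 2 KO libraries at 0 h nearly coincided. Over the first 4 h Junb changed by −2.85 log2 units in control (adjusted p = 0.00071) and by −3.36 in KO (adjusted p = 6.41e-05). The mean left at 4 h was 12.6% of the 0 h mean in control and 9.27% in KO. Between genotypes its log2 change at 0 h was 1.56 (SE 0.583, adjusted p = 0.124), which was not called.

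Jun, the founding member of the Jun family, was below Junb at 0 h in both genotypes. In control at 4 and 8 h its mean was above that of Junb. At 0 h it read 32.9 and 58.1 in control and 125 and 84.6 in KO. After 4 h it read 8.73 and 10.0 in control and 11.2 and 15.5 in KO, and after 8 h 8.11 and 10.4 in control and 6.37 and 15.1 in KO. The genotypes were separate at 0 and 4 h and overlapped at 8 h. The log2 change of Jun over the first 4 h was −2.11 in control (adjusted p = 0.0177) and −2.87 in KO (adjusted p = 0.00113). Its mean was 20.6% of the start in control and 12.8% in KO at 4 h, and 20.3% and 10.3% at 8 h. Junos, a gene on the opposite strand, shares exon sequence with Jun, and Junb shares some with Prdx2. Whether the counting used strand is not stated, and the share of reads from those partners was not tested.

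Fos and Fosb rested on few reads. Fos read 13.2 and 19.4 in control at 0 h (10 and 6 reads) and 21.9 and 28.2 in KO (13 and 16 reads). At 4 h it read 2.91 and 0.772 in control and 1.12 and 0 in KO. At 8 h it read 0 and 0.452 in control and 0 in both KO libraries. Only 1 read was counted for Fos in the 4 libraries at 8 h. Counting error alone allows up to 3 reads where 0 were seen over a group, which puts Fos in KO at 8 h at no more than 5.07% of its 0 h mean. In a fit without the level filter, Fos was called lower from 0 to 4 h in KO (log2 change −4.15, adjusted p = 0.0128), where 4.74% of genes were called lower. From 0 to 8 h it was called in control (−3.82, adjusted p = 0.00574; background 20.5%) and in KO (adjusted p = 0.00241; background 15.6%). From 0 to 4 h in control Fos was not called in that fit (−2.69, adjusted p = 0.117). Fosb read 5.27 and 3.23 in control and 16.8 and 7.05 in KO at 0 h, from 1 to 10 reads per library. It was at 0 in both control libraries at 4 h, which allows up to 26.5% of the 0 h mean. At 8 h 1 KO library held 6.30 (5 reads) and the other 0.637. Fosb was not called in any comparison of that fit.

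Egr1 also fell to a few reads. At 0 h it read 26.3 and 19.4 in control and 53.9 and 31.7 in KO. At 4 h it read 0.728 and 0 in control and 0 and 7.75 in KO, and at 8 h 3.78 and 4.97 in control and 0.637 and 2.52 in KO. The order of the genotypes was therefore KO above control at 0 h, overlapping at 4 h and KO below control at 8 h. Over the first 4 h Egr1 changed by −4.17 log2 units in control (adjusted p = 0.00709) and by −3.84 in KO (adjusted p = 0.0132). At 4 h 1.59% of the 0 h mean was left in control and 9.05% in KO, and at 8 h 19.1% and 3.69%. The 4 h values rest on 1 read in control and 8 in KO.

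Ier2 and Ier5 encode nuclear proteins of the same family, known as regulators of transcription downstream of growth and heat stress signals. Ier2 was the highest of the immediate early genes with reads at 0 h, with 93.5 and 210 in control and 288 and 291 in KO. Per kilobase of its annotated transcript the 0 h mean was 99.7 in control and 190 in KO, against 32.8 and 97.1 for Junb, which came next. At 4 h Ier2 read 18.2 and 20.9 in control and 25.2 and 30.0 in KO, and at 8 h 5.94 and 18.5 in control and 26.1 and 55.4 in KO. Its KO libraries were above the control libraries at each time. The gene without ATTTA in its 3′UTR was among those that fell. Its log2 change over the first 4 h was −2.79 in control (adjusted p = 0.000147) and −3.35 in KO (adjusted p = 6.56e-06), with 12.9% and 9.54% left.

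Ier5 read 25.0 and 22.6 in control and 72.4 and 58.2 in KO at 0 h. At 4 h it read 0.728 and 3.86 in control and 7.29 and 15.5 in KO, and at 8 h 4.86 and 4.97 in control and 7.01 and 5.04 in KO. The genotypes did not overlap at any time, though at 8 h the nearest libraries differed by less than the value of 1 read. The log2 change over 4 h was −3.10 in control (adjusted p = 0.00622) and −2.50 in KO (adjusted p = 0.0278). Of the 7 genes, Ier5 had the largest KO to control change at 4 h, 2.01 (SE 0.790, adjusted p = 0.32), which was not called.

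Zfp36 and Dusp1 are the brakes on mRNA stability and on MAP kinases, and their declines were not tested against each other. Dusp1 read 18.4 and 58.1 in control and 77.5 and 88.2 in KO at 0 h. At 4 h it read 1.46 and 8.50 in control and 10.1 and 11.6 in KO, and at 8 h 5.94 and 4.97 in control and 7.01 and 16.4 in KO. It changed by −2.81 log2 units in control (adjusted p = 0.00731) and by −2.82 in KO (adjusted p = 0.00724) over the first 4 h, with 13.0% and 13.1% left. Dusp1 shares exon sequence with Ergic1 on the opposite strand.

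Zfp36 was the lowest of the 7 tested genes in control at 0 h. It read 6.58 and 12.9 in control and 35.4 and 35.3 in KO at 0 h. At 4 h it read 7.28 and 6.95 in control and 6.73 and 7.75 in KO, so that the genotypes overlapped. At 8 h it read 3.24 and 4.07 in control and 11.5 and 10.1 in KO. Of the 0 h mean, 72.9% was left at 4 h in control and 20.5% in KO. Its change from 0 to 4 h was −0.34 in control (adjusted p = 0.846) and −2.14 in KO (adjusted p = 0.0647), and neither was called. The difference between these changes, −1.80 with a 95% interval from −4.09 to 0.49, was not called either (adjusted p = 1.00). The control values at 0 h rest on 5 and 4 reads, and Gm44710 on the opposite strand shares exon sequence with Zfp36.

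Over the first 4 h, 6 of the 7 tested genes were called lower in control, all but Zfp36, where 11.8% of all tested genes were called lower. In KO 6 were called lower, again all but Zfp36, against 14.4% of all tested genes. The median change of the 7 was −2.81 in control and −2.87 in KO, beside −0.49 and −0.68 over all tested genes. Ranked among all tested genes in control, Jun lay at the 8.69% with the lowest changes and Egr1 at the 0.834%, with the other 4 called genes between them. The counts depend on single libraries: without control 4 h replicate 1, 3 genes were called in control, and leaving out 1 KO library gave a count of 2 (0 h replicate 1) or 3 (0 h replicate 2, 4 h replicate 1) in KO. At 8 h 5 genes were called lower than at 0 h in control, where 53.5% of all genes were, and Egr1 (adjusted p = 0.0875) and Zfp36 (0.214) were not. In KO 6 were called, where 40.5% of all genes were, and Zfp36 (adjusted p = 0.0956) was not. At 8 h the share of all genes called was so high in both genotypes that these counts single out little. Without control 0 h replicate 2, 2 genes were called in control. The medians from 0 to 8 h were −2.14 and −3.24, beside −1.33 and −1.15 over all genes.

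No decline after 4 h passed the test in these genes. From 4 to 8 h none of the 7 was called lower in control, where 4.63% of all genes were, or in KO, where 0.0288% were. The lowest unadjusted p for a lower value was 0.118 (Ier2 in control, −0.81). Egr1 in control went the other way (2.02, unadjusted p = 0.0679). The median change was −0.03 in control and −0.30 in KO, beside −0.79 and −0.45 over all genes. After TMM scaling the medians were 0.75 and 0.05, beside −0.008 and −0.002 over all genes. Of the level at 0 h, the median tested gene kept 66.8% in control and 61.8% in KO at 4 h, and 36.3% and 45.1% at 8 h. Without Zfp36, the tested immediate early genes kept 1.59% to 20.6% in control and 9.05% to 17.4% in KO at 4 h. After 4 h single genes moved in both directions on few reads. Egr1 in control went from 1.59% at 4 h to 19.1% at 8 h and in KO from 9.05% to 3.69%. Ier5 in control went from 9.64% to 20.6% and in KO from 17.4% to 9.23%. None of these steps was called.

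**Figure D2:**
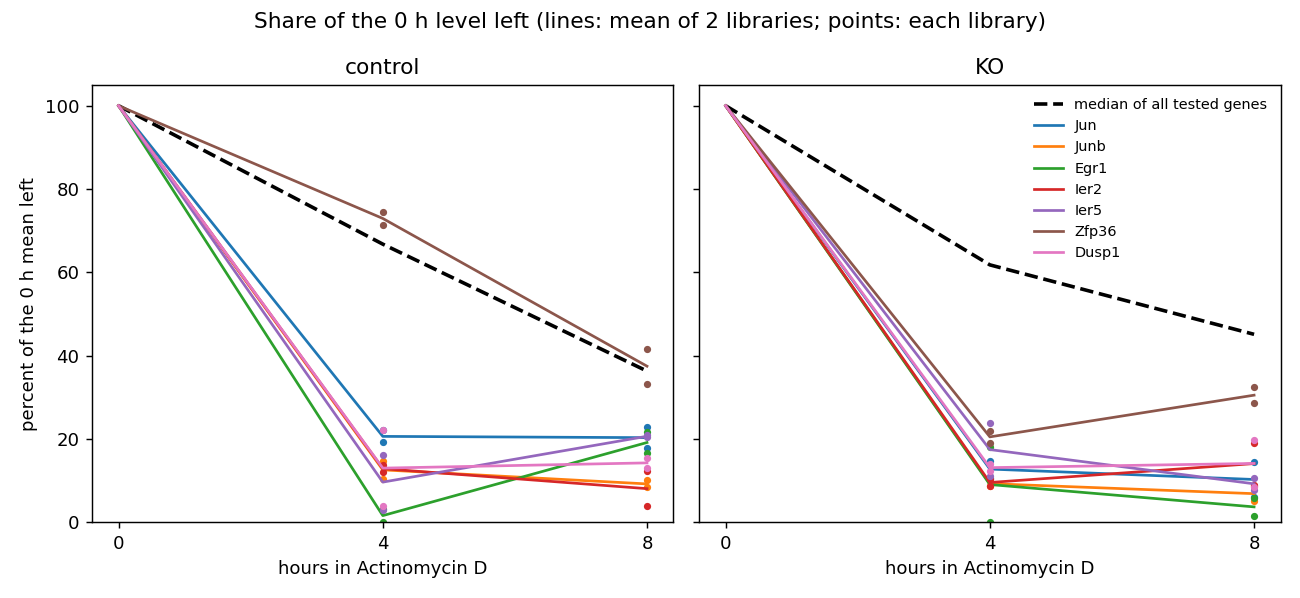
Percent of the 0 h mean left (vertical axis) against hours in Actinomycin D (horizontal axis) for the 7 tested genes, control on the left and KO on the right. Coloured lines are means of 2 libraries, points are single libraries and the black dashed line is the median of all tested genes. Zfp36 follows the dashed line in control (72.9% and 37.5%), and the other 6 genes lie at 20.6% or less in control from 4 h on.

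Part of this fall depends on the scaling of the libraries. When the recovered reads were rescaled by TMM, which sets the typical gene to no change, the medians of the 7 from 0 to 4 h were −2.29 in control and −2.16 in KO. Called lower were then 5 genes in control (6.78% of all genes) and 3 in KO (4.63%) at 4 h. At 8 h 2 genes were called in control (11.2%) and 3 in KO (5.7%). Ier2 and Junb were called in all 4 of these comparisons, Jun in both KO comparisons, and Egr1, Ier5 and Dusp1 from 0 to 4 h in control. Zfp36 in control turned from −0.34 to 0.18 from 0 to 4 h and from −1.15 to 0.06 from 0 to 8 h.

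**Figure D3:**
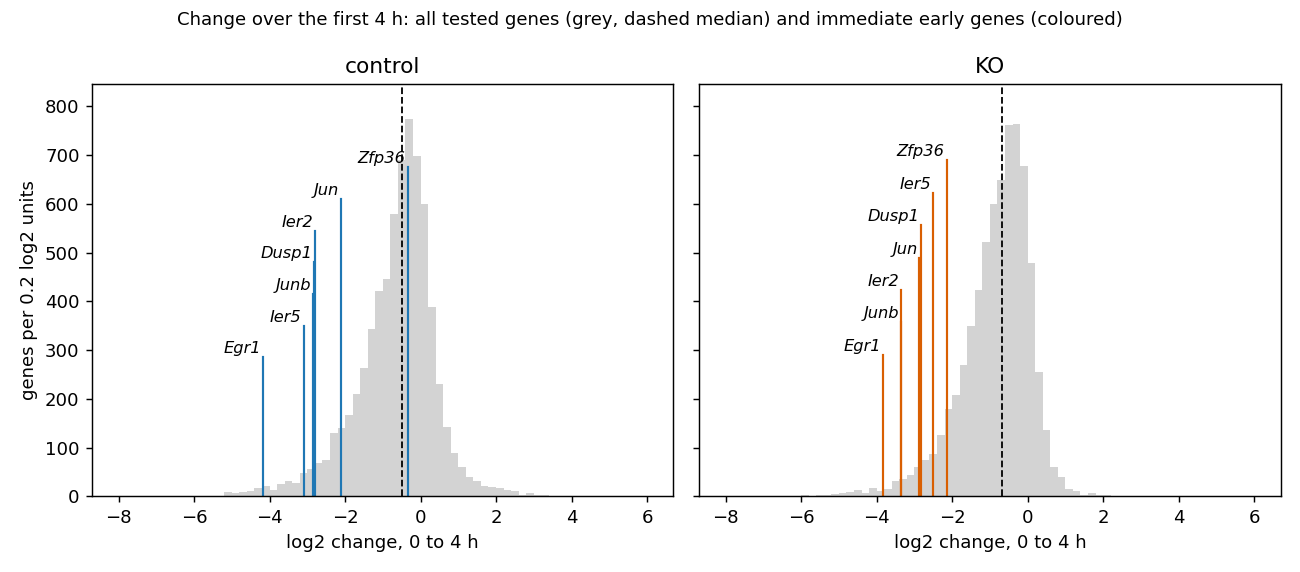
Number of tested genes per 0.2 log2 units (vertical axis) against the log2 change from 0 to 4 h (horizontal axis), control on the left and KO on the right. Grey bars are all 6952 tested genes, the dashed line their median, and coloured lines the 7 tested immediate early genes, whose heights only separate the names. All but Zfp36 in control lie in the left part of the distribution.

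Between genotypes, none of the 7 genes was called at 0 h, where 4.23% of all tested genes were called higher in KO. The lowest adjusted p was 0.124 (Junb), and 3 genes (Junb, Zfp36 and Ier2) had an unadjusted p below 0.05. By edgeR's quasi-likelihood test on the recovered reads the count of calls was also 0. All 7 had KO libraries above both control libraries, as did 37.3% of all tested genes. Zfp36 and Egr1 passed the level filter only through their KO 0 h values, so this count is a description and not support. The log2 changes ran from 0.84 in Egr1 to 1.82 in Zfp36, with a median of 1.30 beside 0.44 over all genes. After TMM scaling the median was 0.87 beside 0.01, with 7 of 7 positive and 0 called. Control 0 h replicate 2 weighs on these values: without it Ier2 was called (1.62, adjusted p = 0.0371), and without replicate 1 its change was 0.46.

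The fibroblast markers were also higher in KO at 0 h. Their summed value was 6020 and 9794 in the control libraries at 0 h and 18941 and 14451 in KO. Of the 13 tested, 6 were called higher in KO, among them Cdh11, Thy1 and Acta2, where 4.23% of all genes were. After TMM scaling 4 of 13 were called higher, beside 94 of all 6952 tested genes. The summed pluripotency markers were 2968 and 4916 in control and 4468 and 4004 in KO, with 0 of 11 called. At 4 h the fibroblast sum was 8654 and 10588 in control and 17863 and 19328 in KO, and at 8 h 7789 and 9606 in control and 14077 and 11122 in KO. Their part in the immediate early difference was not tested. The fibroblast genes did not share the decline over the first 4 h: 0 of 13 were called lower in either genotype, with medians of 0.32 in control and 0.10 in KO. From 0 to 8 h 1 of 13 was called lower in each genotype, where 53.5% and 40.5% of all genes were. After TMM scaling 10 of 13 in control and 8 of 13 in KO were called higher from 0 to 4 h. Of all 6952 tested genes, 362 and 247 were.

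At 4 h none of the 7 genes was called higher in KO, where 0.748% of all genes were, and Ier5 alone had an unadjusted p below 0.05 (0.0144). In 5 of the 7 the KO libraries lay above the control libraries, as in 37% of all genes, with Egr1 and Zfp36 overlapping. At 8 h Ier2 was the 1 gene called higher (1.75, SE 0.510, adjusted p = 0.0344), where 4.88% of all genes were. It was higher in both KO libraries. In 5 of the 7 the KO libraries lay above the control libraries, as in 55.3% of all genes, while Jun overlapped and Egr1 lay below. The Ier2 call at 8 h was lost after TMM scaling (1.15, adjusted p = 0.195), without control 8 h replicate 1 (1.00, adjusted p = 0.581) and without KO 8 h replicate 2 (1.22, adjusted p = 0.493).

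**Figure D4:**
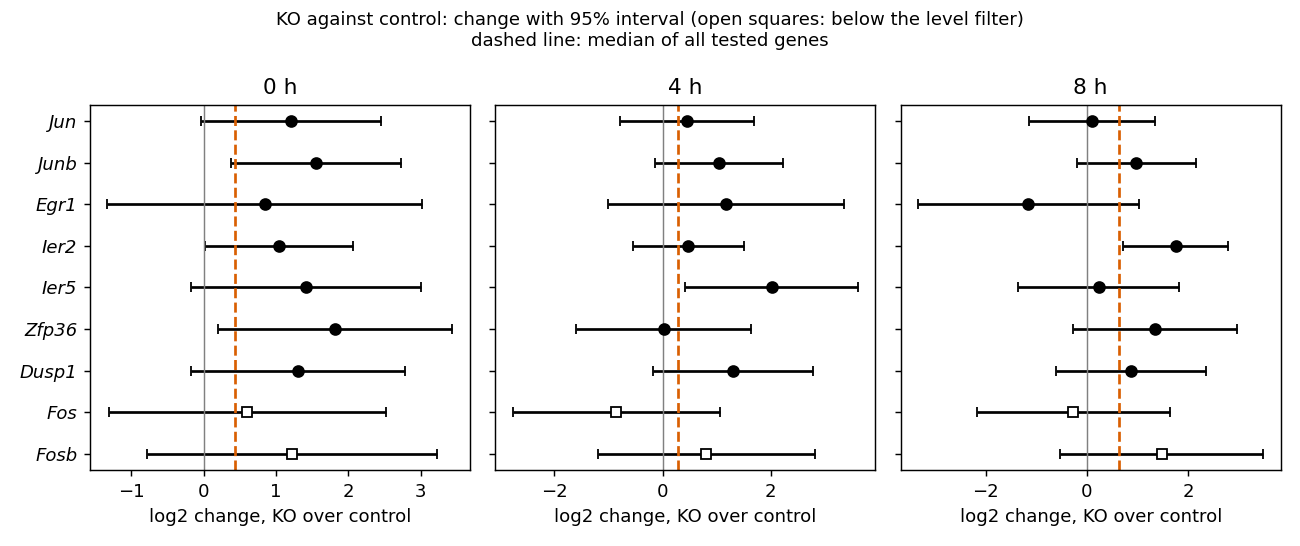
Log2 change of KO over control (horizontal axis) at 0, 4 and 8 h for the 9 genes with reads (rows). Points are fitted changes with 95% intervals from limma, filled where the gene passed the level filter and open where it did not, and the dashed line is the median of all tested genes. At 0 h every point lies to the right of the dashed line and most intervals reach or cross 0, and at 8 h only the interval of Ier2 lies wholly above 0.

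Whether the loss after Actinomycin D differed between genotypes was tested as the KO change minus the control change. None of the 7 genes was called from 0 to 4 h or from 0 to 8 h, where 0.0144% of all tested genes were called in each. None had an unadjusted p below 0.05, the lowest being 0.12 (Zfp36 from 0 to 4 h), and edgeR called 0 in both. The intervals were wide. For Ier2, the gene with the most reads, the difference from 0 to 4 h was −0.56 with a 95% interval from −2.02 to 0.89, so that both a larger and a smaller loss in KO lie within it. Junb differed by −0.51 (−2.17 to 1.15) and Dusp1 by −0.01 (−2.10 to 2.08). Differences within these intervals could not be told from 0 with 2 libraries a group at this depth.

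The wider set of immediate early genes, a list of 43, fell as well. Of its 25 tested members, 17 were called lower from 0 to 4 h in control and 19 in KO (11.8% and 14.4% of all genes), with medians of −2.51 and −2.64. From 0 to 8 h 23 and 22 were called (53.5% and 40.5% of all genes). Klf2 and Klf4, Krüppel-like factors that serve the pluripotency network in ESCs, had the smallest p from 0 to 4 h in control. Klf4 read 539 and 1221 in control at 0 h and 79.3 and 69.5 at 4 h, a log2 change of −3.43 (adjusted p = 4.77e-08). Plk2, a polo-like kinase, had the smallest p in KO, from a mean of 202 at 0 h to 3.29 at 4 h (−5.82, adjusted p = 1.16e-07). Between genotypes at 0 h 0 of 25 were called and 22 were positive, with a median of 0.95 and the smallest p in Ctgf (1.16, adjusted p = 0.0806). After TMM scaling 9 in control and 10 in KO were called lower from 0 to 4 h (6.78% and 4.63% of all genes). From 0 to 8 h 10 and 12 were (11.2% and 5.7%).

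Among 19 AP-1 partners and relatives, some shared with the list above, 6 were tested. Of these 4 were called lower from 0 to 4 h in each genotype (11.8% and 14.4% of all genes), and 5 in control and 6 in KO from 0 to 8 h (53.5% and 40.5%). After TMM scaling 2 in control and 1 in KO were called lower from 0 to 4 h (6.78% and 4.63% of all genes). In control 1 was called higher, beside 362 of all 6952 tested genes. From 0 to 8 h 3 and 2 were called lower (11.2% and 5.7%). Fosl2, a Fos family subunit, read 30.3 and 51.7 in control and 136 and 125 in KO at 0 h, and 2.91 and 6.18 in control and 7.85 and 4.84 in KO at 4 h. Its log2 change was −2.94 in control (adjusted p = 0.00594) and −4.19 in KO (adjusted p = 8.4e-05), and the genotypes overlapped at 4 h. Nfe2l2, which pairs with small Maf proteins in the response to oxidants, changed by −4.21 log2 units from 0 to 8 h in control and by −3.96 in KO.

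Of 28 upstream kinases, SRF cofactors and feedback inhibitors 17 were tested, with 1 called lower from 0 to 4 h in control and 5 in KO (11.8% and 14.4% of all genes), and 11 and 10 from 0 to 8 h (53.5% and 40.5%). After TMM scaling 1 and 2 were called lower from 0 to 4 h (6.78% and 4.63% of all genes). In control 2 were called higher, beside 362 of all 6952 tested genes. From 0 to 8 h 1 and 3 were called lower (11.2% and 5.7%). On the deposited scale the 1 gene called lower from 0 to 4 h in control was Spry2, a feedback inhibitor of receptor tyrosine kinase signalling. Spry2 changed by −2.93 log2 units (adjusted p = 0.000691). Between genotypes at 0 h 0 of the 17 were called, and Spry4 had the smallest p (2.63, adjusted p = 0.13).

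Of 25 factors that bind AU-rich elements or remove such mRNAs, 13 were tested. Zfp36l2, a relative of Zfp36, was the 1 called lower from 0 to 4 h in control (−2.43, adjusted p = 0.000408), where 11.8% of all genes were. In KO 3 were called, Zfp36l2, Zfp36l1 and Cnot8, a subunit of the CCR4-NOT deadenylase, where 14.4% of all genes were. From 0 to 8 h 7 of the 13 were called in control and 6 in KO, near the 53.5% and 40.5% of all genes. After TMM scaling 1 gene was called lower from 0 to 4 h in each genotype (6.78% of all genes in control and 4.63% in KO). From 0 to 8 h 2 were then lower in control (11.2%) and 1 in KO (5.7%). In control 2 were higher, beside 738 of all 6952 tested genes. Cnot6, another CCR4-NOT subunit, was called higher in KO at 0 h, with 5.27 and 12.9 in control against 72.4 and 40.6 in KO (2.56, adjusted p = 0.0176). Of all tested genes 4.23% were called higher in that comparison. After TMM scaling no gene of this list was called between genotypes at 0 h, Cnot6 included. Of the NEXT complex and nuclear exosome, 11 of 16 genes were tested, and Zcchc8 alone was called between genotypes at 0 h.

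Over all tested genes with a matched 3′UTR, the median decline was compared between genes with and without the motifs. From 0 to 4 h in control the median change was −0.39 in the 2127 genes without ATTTA, −0.52 in the 4374 with it and −0.67 in the 460 with TTATTTATT. In KO the medians were −0.58, −0.67 and −0.77. These sets differ in length as well, with median 3′UTRs of 372, 1538 and 2227 bases. At 0 h the median KO to control change was 0.45 without ATTTA, 0.43 with it and 0.54 with TTATTTATT. Each of the 6 called immediate early genes fell by more than 2 log2 units, Ier2 without a motif and Dusp1 with 2 copies of TTATTTATT included. Zfp36, with 1 copy, changed by −0.34 in control and by −2.14 in KO from 0 to 4 h and was not called in either. In KO it was called by limma with a pseudocount of 5 (adjusted p = 0.0205) and in a fit of only the groups compared (adjusted p = 0.0052). Its control values at 0 h rest on 5 and 4 reads.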

How the data were processed

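Total RNA depleted of ribosomal RNA was sequenced from 12 libraries, and the other 47 samples of the series were not analysed here. The deposited table holds a signal, normalised read counts with 1 row per RefSeq transcript. Dividing each column by its own smallest step gave whole reads for 100% of values within 0.001 reads, so the authors' scaling was a single factor in each library and the reads could be recovered. Per the submitters' processing notes, the build was mm9 and the tools included HTSeq 0.6.0, TopHat2 2.1.1 and DESeq2; their settings, strand included, were not found in those notes or the labels. ERCC spike-in RNA was added per the labels, and 0 spike-in rows were in the table as used here, so no rescaling to spike-ins was made. Of 33896 rows, 978 repeats were dropped, and 32918 transcripts were summed by symbol to 23974 genes.

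limma 3.58.1 (R 4.3.3, trend and robust options) was fitted to log2(value + 1) with 6 group means in 1 fit, two-sided, over the 6952 genes with a mean of at least 10. Group comparisons, changes over time and the difference of changes (KO minus control) were contrasts of that fit. Percent left is a library's value over the 0 h mean of its genotype. The alternatives were a pseudocount of 5, no filter, TMM scaling, edgeR 4.0.16 on the recovered reads, only the groups compared, the replicate block and leaving out each library. The code was tested on simulated data in 3 runs, each with 200 changed genes, for KO against control at 0 h. It recovered 52.7% of 4-fold and 7% of 2-fold changes, and 20.4% of its calls were false.

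The members and lists were chosen with earlier results of these data known. All members are named in every comparison, with Zcchc8 as the check of the labels, up to 3 genes with the smallest p from each list described and the 5 genes most alike. The marker genes Pou5f1, Nanog, Esrrb and Col1a1 were picked after their values were seen. Symbols were matched to GENCODE M21 (GRCm38) for 3′UTRs, chromosomes and opposite-strand exons (93.5% of tested genes matched a 3′UTR); no coordinates are given because the files use mm9. Lists for neuroectoderm, primitive endoderm and trophoblast were too thinly tested (3, 1 and 2 genes) to describe; 2 neuroectoderm genes were called higher in KO at 0 h. For the list of upstream kinases and SRF cofactors, the comparison of genotypes at 8 h is not reported here.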

Additional observations from a re-analysis of the deposited data

How the results depend on the processing

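The 7 tested genes were refitted under each alternative, and the cause of a change was not tested. At 0 h 1 gene (Junb) was called in KO with a pseudocount of 5, and 0 to 1 when a library was left out. At 8 h 0 were called with a pseudocount of 5, without the filter and after TMM scaling, and 0 to 1 when a library was left out. From 0 to 4 h in control the count was 3 in a fit of only the groups compared and 3 to 6 when a library was left out, the 3 without control 4 h replicate 1. From 0 to 4 h in KO it was 3 after TMM scaling and 2 to 7 when a library was left out, the 2 without KO 0 h replicate 1. From 0 to 8 h it was 2 in control and 3 in KO after TMM scaling, and 2 to 5 in control when a library was left out, the 2 without control 0 h replicate 2. The counts from 4 to 8 h, at 4 h between genotypes and for the difference of changes were 0 throughout. Deviations of libraries with the same replicate number were weakly correlated (−0.058 to 0.103). The labels do not give the origin of the replicates, so this does not settle whether the numbers pair samples. With the replicate block 7 genes in place of 6 were called from 0 to 4 h in KO, Zfp36 added at an adjusted p of 0.0432. No other count changed.

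Values that changed sign were all uncalled in both fits. With a pseudocount of 5 they were 0.0167 for Dusp1 from 4 to 8 h in KO, and −0.17 for Egr1 and −0.13 for Ier5 in the difference of changes from 0 to 4 h. With edgeR, Dusp1 from 4 to 8 h in KO was 0.050. After TMM scaling, KO against control gave −0.25 for Zfp36 at 4 h, −0.35 for Ier5 and −0.53 for Jun at 8 h. Zfp36 in control gave 0.18 from 0 to 4 h and 0.0565 from 0 to 8 h. From 4 to 8 h Jun gave 0.75 and Junb 0.36 in control, and Dusp1 0.42 and Jun 0.047 in KO; the difference of changes to 4 h for Dusp1 was 0.19. When a library was left out, the difference of changes to 4 h ran from −0.985 to 0.966 for Dusp1, −1.14 to 0.017 for Ier2, −0.15 to 1.35 for Ier5 and −1.24 to 1.89 for Egr1, and that to 8 h from −1.23 to 0.37 for Dusp1 and −0.0376 to 1.45 for Ier2. KO against control ran from −0.0703 to 0.11 for Zfp36 and −0.39 to 2.73 for Egr1 at 4 h, and −0.47 to 0.66 for Jun at 8 h. Zfp36 from 0 to 4 h in control ran from −0.78 to 0.10. From 4 to 8 h the ranges were −0.56 to 1.39 for Dusp1 and −0.19 to 0.14 for Jun in control, and −0.56 to 0.55 for Dusp1, −1.87 to 1.26 for Egr1, −0.94 to 0.18 for Jun and −0.0721 to 0.98 for Ier2 in KO. With 0 to 171 reads per gene and library, depth limits every value after 0 h, and no half-life is given.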

Other observations

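Some genes outside the immediate early set had nearly the same course. Likeness was measured as the Pearson correlation, over the 12 libraries, of log2(value + 1) with the mean standardised value of the 7 tested immediate early genes, among the 2544 genes whose 0 h mean reached 100 in either genotype. The 12 points share library scale and time, and the median correlation of these genes was already 0.711, so the values describe and carry no test. The most alike were Zbtb7a, a POZ and zinc finger repressor, with 0.976, Klf9 with 0.968, Irf2bpl with 0.967, Kbtbd2 with 0.965 and Setd1b, a histone H3K4 methyltransferase, with 0.964. Zbtb7a had a mean of 138 ± 1.37 (SD, n = 2) in control and 260 ± 19.4 in KO at 0 h, and 29.7 ± 2.84 and 43.8 ± 7.98 at 4 h. Irf2bpl went from 495 ± 204 in control and 764 ± 4.05 in KO to 107 ± 0.799 and 182 ± 59.1. Among the immediate early genes, each gene's correlation with the mean of the other 6 ran from 0.817 (Zfp36) and 0.823 (Egr1) to 0.968 (Jun).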
